A study of Mus musculus with 20 samples.

Results

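Retinas of mice homozygous for CrxRip, which is a dominant allele of Crx, were set against retinas of Crx-/- mice, which lack Crx function, at postnatal day 21 (P21). The comparison uses 4 of the 20 samples of the study, 2 CrxRip/Rip and 2 Crx-/-, and all 1497 genes of the P21 table. The study sequenced RNA of whole retina from wild type, CrxRip/+, CrxRip/Rip, Crx-/- and Nrl-/- mice at P2 and P21, on a C57BL/6J background in every group. Each sample pooled 2 retinas and each group had 2 samples. The wild-type samples of P21 are given as the reference level, and the CrxRip/Rip and Crx-/- samples of P2 as the same contrast at an earlier age. Both alleles are germline, so every cell carries them. In whole tissue, fewer cells of a type and less RNA per cell cannot be told apart. The comparison asks which transcripts separate the dominant allele in 2 copies from loss of Crx function.

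Crx and its relative Otx2 are homeobox factors that switch on photoreceptor genes. Nrl, a leucine zipper factor, directs photoreceptor precursors to the rod fate, and it activates Nr2e3, a nuclear receptor that represses cone genes in rods. Photoreceptor genes carry sites that Crx and Otx2 both bind, and the core of such a site is often written TAATCC.

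The values are FPKM, fragment counts scaled to the length of the transcript and the size of the library, with 1 decimal, and the read depth behind them is unknown. The table is not the whole transcriptome. Its genes were selected by the authors for a difference between some pair of genotypes, so shares of called genes describe selected genes. Called genes are those with an adjusted p under 0.05 in limma on log2(FPKM + 1), and differences are CrxRip/Rip minus Crx-/- on that log2 scale, which understates the change of genes near 0. Wild-type samples carried the transcripts that define retina, with Pde6b, a subunit of the rod phosphodiesterase, at 554.7 and 524.0 FPKM. Crx, the gene that both alleles alter, was at 174.1 and 218.8 FPKM in CrxRip/Rip, 167.9 and 171.4 in Crx-/- and 350.7 and 343.9 in wild type. A level over the whole transcript does not show which part of it is altered, so it checks neither genotype. The 2 samples of a group differed by a median of 0.17 in CrxRip/Rip and 0.11 in Crx-/-, and by at least 1 in 45 and 3 genes. The CrxRip/Rip samples differed in the lens list, where the summed level of the 4 genes measured was 0.3 FPKM in replicate 1 and 58.3 in replicate 2. Crx-/- was at 9.2 and 4.0, and wild type also varied, at 41.6 and 9.7. Globin genes were also higher in CrxRip/Rip replicate 2 than in replicate 1, at 44.5 and 8.9 FPKM in sum over 5 genes. Crx-/- was at 25.8 and 20.2, wild type at 26.1 and 37.6, and Nrl-/- at 44.9 and 92.0. The part of these in other results was not tested. The total of calls was 741 without CrxRip/Rip replicate 2.

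The upstream sequences of Crx and of Samd7, which was far lower in CrxRip/Rip than in Crx-/-, are shown first because they hold the TAATCC letters and the contrast is between alleles of the factor that binds them. Each is the 250 bases before the RefSeq gene start in GRCm38.p6, 5′ to 3′ on the gene's strand, with TAATCC or its reverse complement GGATTA in capitals. The windows, each next to the annotated span of its gene, are chr7:15879956-15880205 (minus strand) and chr3:30746043-30746292 (plus).
Crx: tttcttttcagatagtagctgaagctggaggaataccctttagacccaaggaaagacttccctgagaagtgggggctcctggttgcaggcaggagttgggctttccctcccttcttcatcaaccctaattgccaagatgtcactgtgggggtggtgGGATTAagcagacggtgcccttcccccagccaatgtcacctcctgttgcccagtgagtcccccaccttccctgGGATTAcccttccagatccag
Samd7: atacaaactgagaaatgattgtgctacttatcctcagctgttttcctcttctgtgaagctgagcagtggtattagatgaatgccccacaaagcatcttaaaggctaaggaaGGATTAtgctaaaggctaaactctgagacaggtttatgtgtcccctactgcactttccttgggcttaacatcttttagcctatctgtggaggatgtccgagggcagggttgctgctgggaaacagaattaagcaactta
The Crx window holds GGATTA at -94 and -21, counted from the gene start to the first base of the match. Samd7 holds it at -139. The window of Pde6b holds no match, which says only that these letters are not in it. Both strands were searched. TAAGCC and TGCTGA were also looked for in some windows, and TAATCC was chosen for display after that. Shares were counted over all start sites in the RefSeq promoter table, some of which lie inside the widest span of their gene. Of 27025 mouse genes with a window, 7.21% held the letters, against 9.79% of the 1154 genes of the P21 table with one. The share was 11.6% of 389 genes lower in CrxRip/Rip, 8.56% of 222 higher and 9.02% of 543 not called. By list it was 4 of 9 rod genes, 2 of 10 cone genes and 10 of 17 genes shared by rods and cones. These shares are a description, and a match is not shown to be a bound site.

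CrxRip/Rip and Crx-/- retinas differed in 799 of 1497 genes, or 53.4% of the table. Of these, 291 were higher in CrxRip/Rip (19.4%) and 508 were lower (33.9%), and the median difference over the table was -0.12. The split depends on the scaling. With median-of-ratios scaling the median was 0.01, and 406 genes were higher and 391 lower, so that 50.9% of calls were higher in place of 36.4%. The largest differences were on the low side. Of 21 called genes that differed by at least 3, 16 were lower in CrxRip/Rip and 5 higher. In the authors' deposited table their threshold was passed for this pair by 353 genes (23.6%), 123 higher and 230 lower, and 335 of them were also called here. Against wild type, CrxRip/Rip differed in 1207 genes (80.6%), 544 higher (36.3%) and 663 lower (44.3%). Crx-/- differed in 1217 (81.3%), 596 higher (39.8%) and 621 lower (41.5%), and these comparisons share the wild-type samples. An exact permutation of 2 against 2 samples cannot go below p = 0.33, so the calls rest on the spread limma pools over genes and genotypes.

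**Figure D1:**
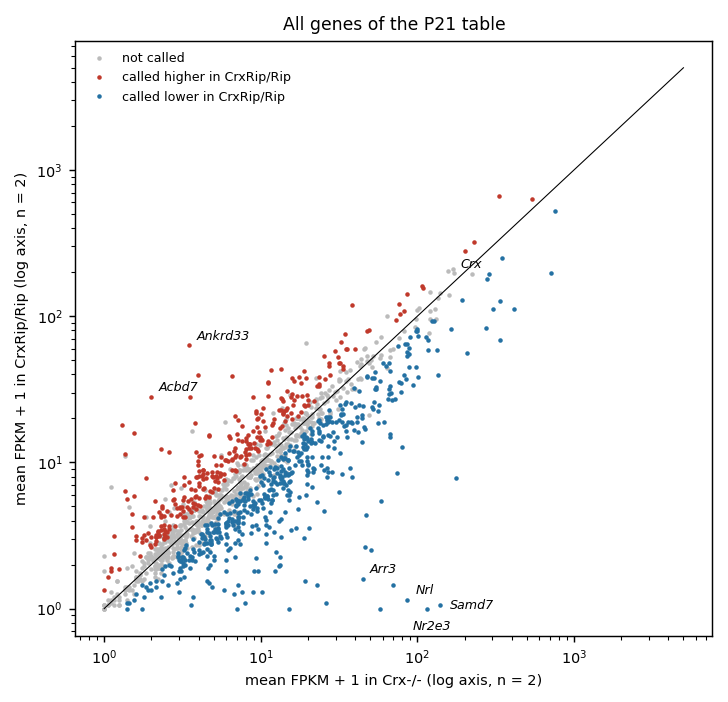
Mean FPKM + 1 of each gene of the P21 table in Crx-/- (x axis) and CrxRip/Rip (y axis), n = 2 samples each, on log axes, with called genes in colour. Samd7, Nr2e3 and Nrl lie at the bottom right and Ankrd33 and Acbd7 well above the diagonal.

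Among the regulators of photoreceptor fate, the rod factors were near 0 in CrxRip/Rip and present in Crx-/-. 13 of 21 factors on the list were in the table, and 76.9% of them were called, beside 53.4% of the table. 7 were lower in CrxRip/Rip, 3 higher and 3 not called, with a median of -0.48, and 1 was higher with only the 2 groups in the fit. With median-of-ratios scaling 5 were higher and 6 lower, with a median of -0.31. Nrl (chromosome 14, 55518978 to 55524981) was at 0.1 and 0.2 FPKM in CrxRip/Rip, 87.2 and 82.0 in Crx-/- and 466.1 and 427.6 in wild type. Crx-/- thus kept an intermediate level that CrxRip/Rip did not have, and the groups did not overlap (a difference of -6.22 ± 0.14, the second value being the SE here and below, adjusted p = 2.6e-08). Nr2e3 (chromosome 9, 59942771 to 59960834) was listed at 0 in both CrxRip/Rip samples, against 118.0 and 110.0 FPKM in Crx-/- and 223.7 and 198.8 in wild type (-6.84 ± 0.15, adjusted p = 2.6e-08). Samd7, a sterile alpha motif protein of photoreceptor nuclei that acts with Polycomb, was at 0.0 and 0.1 FPKM in CrxRip/Rip and at 146.2 and 132.6 in Crx-/-. That is above the wild-type samples, at 41.6 and 43.5 FPKM, and the difference between the mutants was -7.06 ± 0.10 (adjusted p = 2.08e-09).

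Other nuclear factors were lower by less. Esrrb, an orphan nuclear receptor of rods, was at 0.2 and 0.3 FPKM against 5.2 and 6.3, both far under the 71.7 and 95.1 of wild type (-2.43 ± 0.20, adjusted p = 3.2e-05). Rxrg, the retinoid receptor of cones, was at 6.4 and 8.2 FPKM against 33.7 and 30.6, and wild type at 2.5 and 2.6 was under both (-2.0 ± 0.16, adjusted p = 2.18e-05). Pias3, a SUMO ligase that acts on photoreceptor factors, differed by -0.71 ± 0.10 (adjusted p = 0.00049), and Rorb, a nuclear receptor upstream of Nrl, by -0.48 ± 0.14 (adjusted p = 0.0218). The Rorb difference was -0.31 and not called with median-of-ratios scaling.

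In the opposite direction, Ankrd33, an ankyrin repeat protein that represses photoreceptor genes, was at 52.9 and 71.7 FPKM in CrxRip/Rip against 2.8 and 2.2 in Crx-/- (4.17 ± 0.16, adjusted p = 5.3e-07). The CrxRip/Rip samples lay close to wild type, at 78.2 and 71.2, and the Crx-/- samples far under it. Otx2 was at 263.5 and 289.0 FPKM against 211.6 and 186.8, with wild type at 81.0 and 80.1 (0.47 ± 0.11, adjusted p = 0.00628). Both mutants thus exceeded wild type, and the call was lost with only the 2 groups in the fit. Sall3, a zinc finger factor of cones, was low throughout, at 1.2 and 2.9 FPKM against 0.6 and 0.9 (0.75 ± 0.23, adjusted p = 0.0255). That difference was 0.34 and not called without CrxRip/Rip replicate 2. Crx itself (0.20 ± 0.13, adjusted p = 0.209), Prdm1 (-0.23 ± 0.10, adjusted p = 0.0856) and Mef2c (0.20 ± 0.10, adjusted p = 0.122) were not called.

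**Figure D2:**
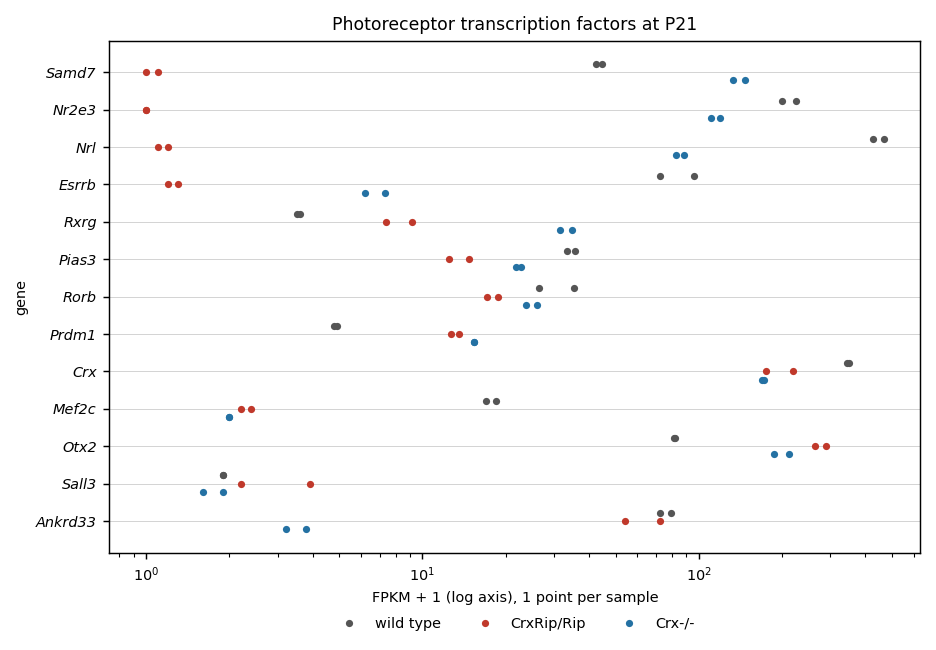
FPKM + 1 (log axis) of the 13 photoreceptor transcription factors in the P21 table, 1 point per sample, in wild type, CrxRip/Rip and Crx-/-. Samd7, Nr2e3 and Nrl sit at the left edge in CrxRip/Rip, at 0.0 to 0.2 FPKM, while Ankrd33 is low in Crx-/- only among these 3 groups.

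At the Crx locus, Obox6 and Crxos moved in opposite directions. Obox6 (chromosome 7, 15833250 to 15839679), an oocyte homeobox gene, was at 23.0 and 21.0 FPKM in Crx-/- and under 1 in CrxRip/Rip (0.4 and 0.5) and wild type (0.2 and 0.4), a difference of -3.99 ± 0.13 (adjusted p = 1.97e-07). Crxos, the Crx opposite strand transcript (15882617 to 15904030, with no overlap with Crx at 15865947 to 15879955), was at 10.3 and 10 FPKM in CrxRip/Rip, 3.1 and 3.2 in Crx-/- and 3.0 and 2.5 in wild type (1.43 ± 0.24, adjusted p = 0.00147). Its level was also above wild type in CrxRip/+, at 16.3 and 8.3 FPKM, and in Nrl-/-, at 23.4 and 22.6.

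Rod genes were lower in CrxRip/Rip as a group. All 17 on the list were in the table, 13 were lower, none was higher and 4 were not called by limma, with a median of -0.77 and 0 higher at an unadjusted p under 0.05. The share called was 76.5%, beside 53.4% of the table, where 33.9% of all genes were lower. With median-of-ratios scaling 10 were lower and none higher, and without CrxRip/Rip replicate 2 10 were lower and 1 higher. Cnga1, the alpha subunit of the rod cGMP-gated channel, was listed at 0 in both CrxRip/Rip samples and was at 59.6 and 54.3 FPKM in Crx-/- (-5.86 ± 0.11, adjusted p = 1.08e-08). Pde6b and Pde6a, the catalytic subunits of the rod phosphodiesterase, differed by -4.52 ± 0.19 and -4.12 ± 0.12. Pde6b was at 8.0 and 5.6 FPKM against 189.6 and 163.3, and Pde6a at 1.4 and 1.9 against 46.2 and 43.8. Gnat1, rod transducin alpha, was at 0.2 and 0.4 FPKM against 10 and 8.4, and Sag, rod arrestin, at 118.4 and 104.0 against 440.6 and 379.8. The list was not uniform. Gngt1, rod transducin gamma, was at 137.7 and 149.7 FPKM against 146.6 and 128.7 (0.06 ± 0.11, adjusted p = 0.666). Guca1b, a guanylate cyclase activator, and Reep6, a trafficking protein, also had overlapping or near-equal values of 7.1 to 11.1 FPKM in these samples, while wild type lay between 333.1 and 548.9 FPKM.

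Cone genes were mixed. Of 14 measured, 8 were lower in CrxRip/Rip, 1 higher and 5 not called, with a median of -0.52. That is 64.3% called, beside 53.4% of the table. Arr3, cone arrestin, was at 0.4 and 0.8 FPKM against 47.2 and 40.2, and wild type at 122.0 and 118.2 (-4.81 ± 0.20, adjusted p = 7.93e-07). Cnga3, the cone channel subunit, was listed at 0 in CrxRip/Rip and at 6.0 FPKM in both Crx-/- samples (-2.81 ± 0.09, adjusted p = 2.1e-07). Opn1sw, the short-wave opsin, was low in both mutants, at 0.2 FPKM in each CrxRip/Rip sample and 2.7 in each Crx-/- sample, against 164.5 and 141.0 in wild type. Cngb3, the partner subunit of Cnga3, differed the other way, at 29.6 and 22.5 FPKM against 13.2 and 12.3, with wild type at 4.7 and 4.8 (0.96 ± 0.14, adjusted p = 0.000679). The cone phosphodiesterase Pde6c was at 73.1 and 46.1 FPKM against 45.2 and 44.8 and was not called (0.36 ± 0.24, adjusted p = 0.233).

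Of 20 measured genes of phototransduction and the visual cycle that rods and cones share, 13 were lower, 1 higher and 6 not called. The median was -0.52, and 70.0% were called, beside 53.4% of the table. With median-of-ratios scaling 12 were lower and 3 higher. Impg1, a matrix protein around photoreceptors, was at 0.9 and 2.1 FPKM against 48.6 and 50 (-4.37 ± 0.23, adjusted p = 2.42e-06). Aipl1, a chaperone of the phosphodiesterase, was at 70.7 and 64.3 FPKM against 352.8 and 321.5, and wild type at 323.4 and 282.2 overlapped with Crx-/- and not with CrxRip/Rip (-2.30 ± 0.14, adjusted p = 5.1e-06). Abca4, a retinoid transporter of discs, was higher, at 44.2 and 45.4 FPKM against 33.1 and 32.1 (0.45 ± 0.07, adjusted p = 0.00133). Tulp1, Gnb5 and Impg2 were among the genes not called, at 42.9 to 166.5 FPKM in these 4 samples.

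Of 16 outer segment, disc and cilium genes measured, 4 were higher, 6 lower and 6 not called, with a median of -0.09 that became 0.01 with median-of-ratios scaling, where 6 were higher and 4 lower. The disc rim proteins Rom1 and Prph2 were lower, by -1.74 ± 0.13 and -0.62 ± 0.11, and Rp1, which organises discs, by -1.40 ± 0.12. Among those higher were Prcd, Lca5 and Rpgrip1, by 0.56, 0.57 and 0.39. Lca5 and Rpgrip1, and Gnat1, Sag and Rabgef1 elsewhere, were named after their values were seen. Without Crx-/- replicate 2, 2 genes were higher and 5 lower. Of 11 synapse genes, 2 were higher, 5 lower and 4 not called. The shares called were 62.5% and 63.6% in these lists, near the 53.4% of the table. Cabp4, a calcium sensor of the photoreceptor terminal, was at 2.4 and 1.8 FPKM against 13.1 and 11.7 (-2.12 ± 0.15), while Cacna1f, the terminal's calcium channel, was at 45.4 and 57.6 against 29.0 and 31.5 (0.74 ± 0.12), and Rabgef1 was the other higher gene.

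**Figure D3:**
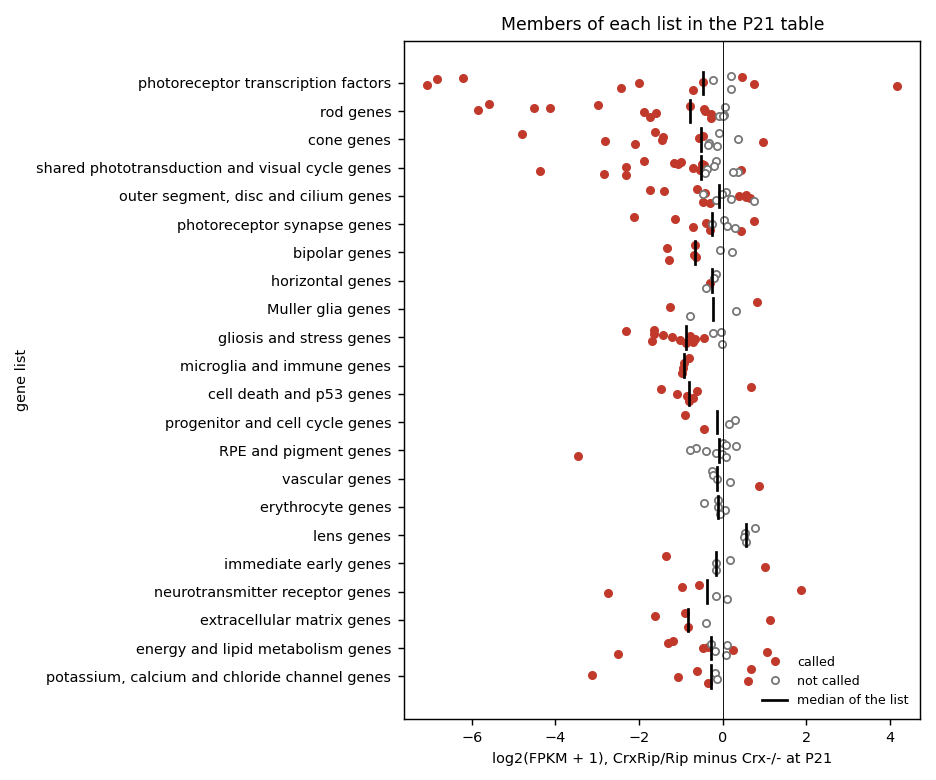
Difference in log2(FPKM + 1) between CrxRip/Rip and Crx-/- at P21 (x axis) for each member of the lists with at least 4 members in the table, 1 point per gene, filled where called, with a bar at the list's median. Rod genes lie at or below about 0, and the gliosis and stress genes that were called all lie below 0.

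Markers of other retinal cells entered the table less fully. 7 of 28 bipolar genes were measured, and 5 were lower and 2 not called, with a median of -0.65. That is 71.4% called, beside 53.4% of the table. Cabp5, a calcium sensor of bipolar cells, was at 19.4 and 23.2 FPKM against 57.5 and 52.6 (-1.33 ± 0.17), and Prkca, the rod bipolar kinase, at 18.7 and 22.1 against 30.0 and 35.3 (-0.65 ± 0.11). Of 4 horizontal cell genes only Septin4 was called (-0.29 ± 0.11, adjusted p = 0.045), and it was lost under most alternatives. No amacrine gene of the 20 listed was in the table, and of 18 ganglion cell genes only Isl2 was. Among 4 Muller glia genes, Sox9 was higher (0.82 ± 0.15) and Crym lower (-1.25 ± 0.29). Crym was at 38.2 and 19.4 FPKM in CrxRip/Rip, and its difference was -0.78 without CrxRip/Rip replicate 2. Its call was lost with only the 2 groups in the fit and without Crx-/- replicate 1. Fabp7 and Spc25 were not called. Spc25 was at 66.4 and 19.7 FPKM in the CrxRip/Rip samples, a gap wider than most.

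The stress and immune transcripts in the table were mostly lower in CrxRip/Rip than in Crx-/-. These lists entered it in part, with 15 of 26 gliosis and stress genes, 4 of 30 immune genes and 7 of 20 cell death genes. Of the 15 gliosis and stress genes, 12 were lower, none higher and 3 not called by limma. Their median was -0.87, with 0 higher at an unadjusted p under 0.05. That is 80.0% called, beside 53.4% of the table, of which 33.9% were lower. Every measured gene of the immune and cell death lists was called. Gfap, the intermediate filament of reactive glia, was at 8.6 and 6.5 FPKM in CrxRip/Rip, 26.8 and 24.6 in Crx-/- and 4.5 and 3.7 in wild type (-1.65 ± 0.17, adjusted p = 9.6e-05). Serpina3n, a protease inhibitor of reactive astrocytes, was at 0.9 and 0.7 FPKM against 9.3 and 6.7, and wild type at 1.1 and 0.9 was near CrxRip/Rip (-2.31 ± 0.37, adjusted p = 0.00105). Stat3, a signal transducer of glial stress, did not pass the test, at 19.7 and 19.3 FPKM against 20.6 and 19.9. Without Crx-/- replicate 1, 5 genes of this list were lower. All 4 immune genes measured (Irf7, Ctss, C1qc and C1qa) were lower, by 0.80 to 0.98 in size, at sums of 9.4 and 7.4 FPKM against 20.8 and 17.7. By limma, 2 were called without CrxRip/Rip replicate 1, 1 without CrxRip/Rip replicate 2 or Crx-/- replicate 2, and 0 without Crx-/- replicate 1, where 1 had an unadjusted p under 0.05. Of 7 cell death genes, 6 were lower and 1 was higher, and without Crx-/- replicate 1 only 2 were lower. Cdkn1a, a p53 target, was at 5.0 and 4.1 FPKM against 11.3 and 10.4, above wild type at 0.9 in both samples, and its call was lost without CrxRip/Rip replicate 2 or either Crx-/- sample.

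Single genes outside the photoreceptor lists gave several of the largest differences. Gje1, a connexin-like gene, was at 0.1 FPKM in each CrxRip/Rip and each wild-type sample and at 27.3 and 22.8 in Crx-/- (-4.56 ± 0.12, adjusted p = 4.09e-08). Krt73, a keratin, was listed at 0 in CrxRip/Rip and wild type and was at 15.6 and 12.6 FPKM in Crx-/- (-3.91 ± 0.12). Hcrtr1, the orexin receptor, was at 0.7 and 0.4 FPKM against 18.1 and 18.0, and Rbp4, the retinol carrier of plasma, at 2.4 and 4.3 against 48.6 and 43.4. For these genes Crx-/- stood above both of the other groups. Rbp4 was the only called gene of 10 RPE and pigment genes measured, a smaller share than the 53.4% called over the table. Ebpl, a homologue of a sterol isomerase, was at 3.9 and 4.9 FPKM against 61.7 and 52.7, and wild type lay between at 25.7 and 23.4.

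On the high side, Acbd7, an acyl-CoA binding protein, was at 28.8 and 25.6 FPKM against 1.1 and 0.9 in Crx-/- and 1.6 in both wild-type samples (3.82 ± 0.16, adjusted p = 7.21e-07). Atp13a5, a cation-transporting ATPase, was at 16.8 and 17.2 FPKM against 0.3 in both Crx-/- samples (3.79 ± 0.09, adjusted p = 2.6e-08). Its neighbour Plaat1, a phospholipid acyltransferase, was at 28.3 and 25.4 against 2.8 and 2.3 (2.97 ± 0.14, adjusted p = 1.15e-06). The annotations of Plaat1 (chromosome 16, 29209133 to 29230531) and Atp13a5 (29230490 to 29378766) overlap at their ends, so reads there may not be separated. Kif19a, a kinesin, was at 27.0 and 48.6 FPKM against 5.6 and 5.5, and Srl, a calcium-binding protein of muscle, at 12.6 and 10.1 against 1.4 and 1.2. Mdga1, an adhesion protein, Trhde, a peptidase, Tmem26, Tmem158, Trim43c and Arid3c were also among the 15 largest. Trim43c has near-identical copies and is uncertain. Ermap and Mybph varied between the CrxRip/Rip samples, at 23.7 and 6.1 FPKM and at 9.3 and 67.4. Without CrxRip/Rip replicate 2 the Mybph difference was 1.38 in place of 2.75, and its call was lost with only the 2 groups in the fit and without either Crx-/- sample. Chrnb4, a nicotinic receptor subunit, was at 48.4 and 35.3 FPKM against 11.1 and 10 (1.88 ± 0.35), whereas its partner Chrna3 was at 9.9 and 8.5 against 19.8 and 17.8 (-0.96 ± 0.13).

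**Figure D4:**
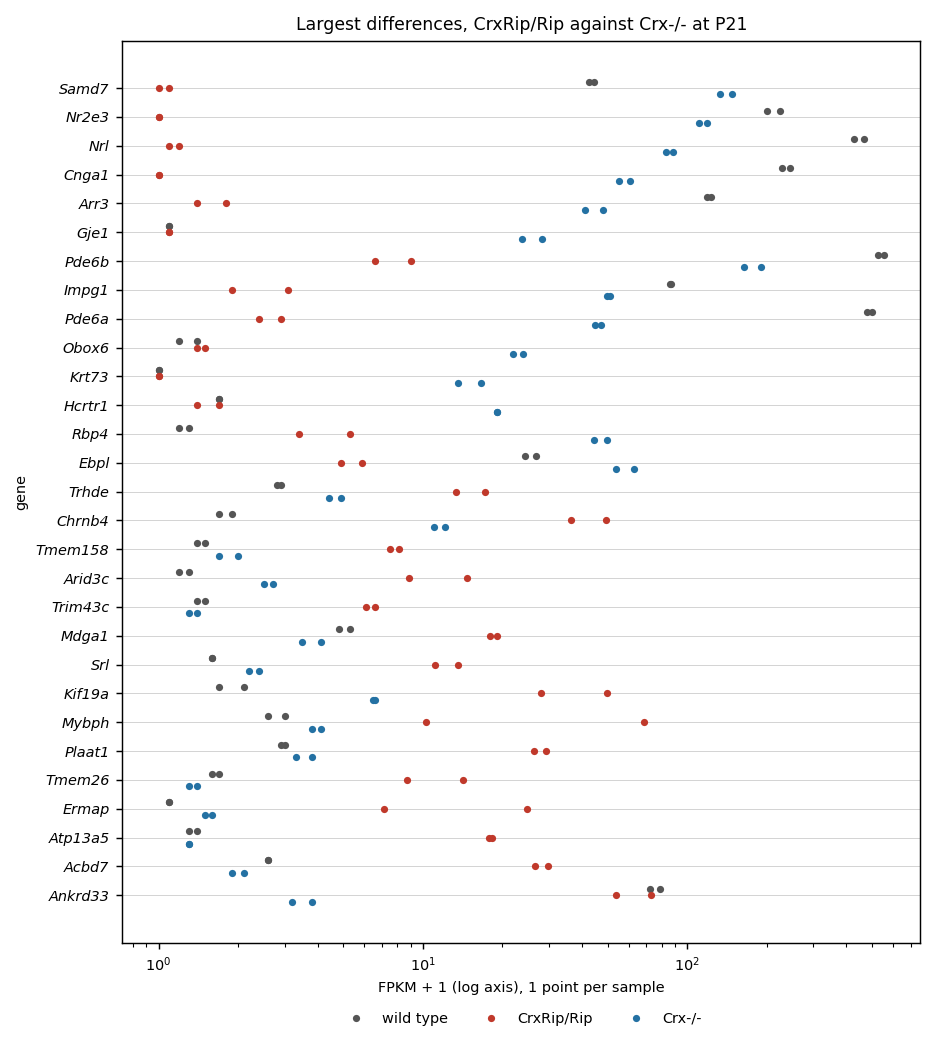
FPKM + 1 (log axis) of the 15 largest called rises and 14 of the 15 largest called falls, 1 point per sample in wild type, CrxRip/Rip and Crx-/-. These genes were chosen for samples that do not overlap between the mutants, so the separation is a result of the choice.

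The same contrast was made at P2, when rods are still being born. The P2 table held 566 genes, of which 234 were called (41.3%), 103 higher (18.2%) and 131 lower (23.1%). With only the 2 groups in the fit 133 were called, and 136 without Crx-/- replicate 2. Of 198 genes in both tables, 127 were called at each age (64.1%), and 90 at both, which is 70.9% of either list. No sample is shared between the ages. Of the 90, 12 were higher at both ages, 66 lower at both and 12 went opposite ways. Samd7 was already near 0 in CrxRip/Rip at P2, at 0.1 and 0.2 FPKM against 29.3 and 38.9 in Crx-/- (-4.92 ± 0.17, adjusted p = 1.39e-06). Nrl was not: it was at 36.5 and 43.2 FPKM against 73.0 and 81.6 (-0.94 ± 0.14, adjusted p = 0.00104), and wild type at 69.4 and 81.0 overlapped with Crx-/-. Nr2e3 was at 61.4 and 70.2 FPKM against 112.4 and 133.2 (-0.89 ± 0.17, adjusted p = 0.00378). Pde6b was at 1.5 and 2.3 FPKM against 15 and 19.1, and Cnga1 was listed at 0 in CrxRip/Rip with 0.6 and 0.9 in Crx-/-. Acbd7 was at 5.2 and 6.2 FPKM against 1.5 and 1.7 (1.36 ± 0.13), and Ankrd33 at 2.6 and 2.2 against 1.2 and 1.1 (0.66 ± 0.09). Slitrk6, a neurite growth protein, was higher at both ages, by 1.36 ± 0.10 at P2 and 1.68 ± 0.10 at P21. All 10 cone genes in the P2 table were lower in CrxRip/Rip, Cngb3 and Pde6c included. Ages were not tested against each other.

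**Figure D5:**
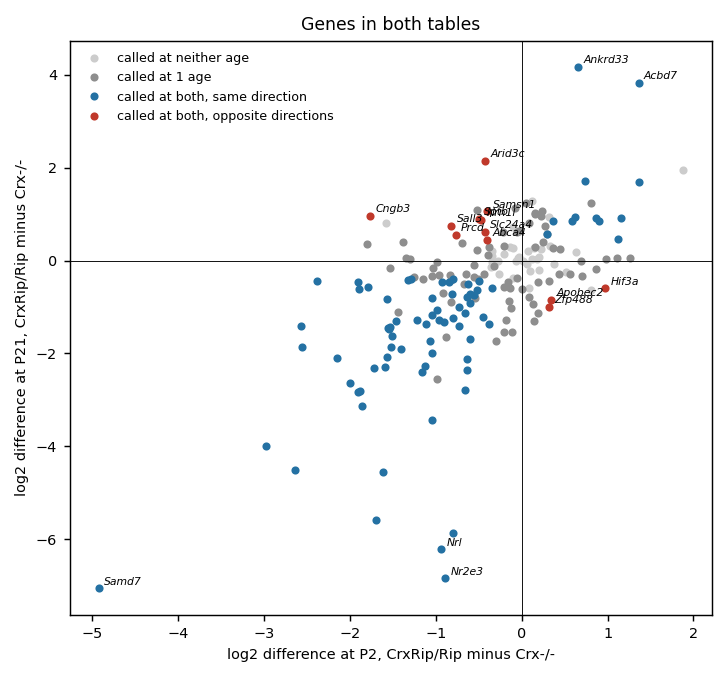
Difference in log2(FPKM + 1), CrxRip/Rip minus Crx-/-, at P2 (x axis) and P21 (y axis) for the 198 genes in both tables, 1 point per gene, coloured by the calls. Samd7 lies far down on both axes, Nrl and Nr2e3 far down at P21 and near -0.9 at P2, and 12 genes called in opposite directions are in red.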

How the data were processed

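RNA of whole retina was sequenced, and the analysis used the 10 P21 samples and the 10 P2 samples, grouped by their titles. Sample columns hold FPKM as the authors deposited them, to 1 decimal, and read depth cannot be recovered from them. The authors' adjusted p-values and log2 fold changes are in the same tables, the latter reaching 15 in size where a group is at or near 0. The submitters' processing notes name DESeq, with no version. Aligner, counter and build: not given in the sources used here. Each gene had passed the authors' threshold (adjusted p under 0.05, log2 fold change of at least 1, mean of at least 2 FPKM) in some comparison, so the false call rate is not known.

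limma 3.58.1 (R 4.3.3) was fitted to log2(FPKM + 1) of the 10 samples of an age, 1 term per genotype, with a variance trend. There were 5 residual degrees of freedom, plus 3.06 (P21) or 2.95 (P2) from moderation. Two-sided p-values were corrected over the table by the Benjamini-Hochberg method. The fit was tested on simulated data. Nothing in the labels says that samples of a group came from separate litters, so the spread may be partly technical. Symbols and positions came from RefSeq GRCm38.p6, matched by accession for 1485 of 1497 genes. The 27 gene lists and the members were chosen with earlier results of these data known. The rule for naming genes takes photoreceptor factors, the 15 largest called differences each way with a mean of at least 5 FPKM and no overlap between samples, up to 4 called and 3 uncalled members per list, and, of genes called at both ages, the 5 largest each way and all that were opposite. A part of these is printed, and a few genes are not reported here. Alternatives were other pseudocounts (0.1 and 0.5), a filter at 2 FPKM, other scalings, only the 2 groups, no variance trend, the replicate number as a block, and each sample left out.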

Additional observations from a re-analysis of the deposited data

Results flagged for a closer look

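12 genes were called in this contrast at both ages in opposite directions, with every CrxRip/Rip sample on one side of both Crx-/- samples at P21 and on the other side at P2. The difference between the ages was not tested. 9 of them were higher in CrxRip/Rip at P21 and lower at P2. Cngb3, the cone channel subunit, differed by 0.96 at P21 and -1.76 at P2. Arid3c, a DNA-binding protein, differed by 2.14 at P21 and -0.43 at P2. Sall3 differed by 0.75 at P21 and -0.82 at P2. Prcd, a disc protein, differed by 0.56 at P21 and -0.77 at P2. Abca4 differed by 0.45 at P21 and -0.4 at P2. Samsn1 differed by 1.06 at P21 and -0.4 at P2. Nrn1l differed by 0.88 at P21 and -0.47 at P2. Sptb, a spectrin, differed by 0.9 at P21 and -0.5 at P2. Slc24a4, a sodium-calcium exchanger, differed by 0.62 at P21 and -0.43 at P2. 3 were lower at P21 and higher at P2. Zfp488 differed by -1.0 at P21 and 0.32 at P2. Apobec2 differed by -0.84 at P21 and 0.34 at P2. Hif3a, a hypoxia-inducible factor subunit, differed by -0.6 at P21 and 0.97 at P2. The clearest in level was Cngb3, at 1.4 and 1.5 FPKM in CrxRip/Rip and 7.4 and 7.2 in Crx-/- at P2, and at 29.6 and 22.5 against 13.2 and 12.3 at P21. Several rest on low levels, such as Slc24a4 at P2, at 0.1 and 0.2 FPKM against 0.4 and 0.7. Some P2 calls were near the threshold, with an adjusted p in limma of 0.0425 for Slc24a4 and 0.0324 for Zfp488. How the P2 calls of these genes fare under the alternatives is not given here. At P21 the call of Hif3a was lost with median-of-ratios scaling and with a pseudocount of 0.1. That of Sall3 was lost with only the 2 groups in the fit. The P21 calls of Sall3, Hif3a, Apobec2 and Prcd were lost when at least 1 of the 4 samples was left out.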

How the results depend on the processing

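At P21 the contrast of CrxRip/Rip with Crx-/- called 573 to 833 genes when each sample of the age was left out in turn (219 to 328 higher, 354 to 529 lower), and 628 to 813 under the other alternatives, against 799. CrxRip/Rip against wild type called 1207 (1110 to 1230 with a sample left out) and Crx-/- against wild type 1217 (1111 to 1250). At P2 the 234 calls (103 higher, 131 lower) became 133 with only the 2 groups in the fit, 42 of them higher. With a sample left out they ranged from 136 to 235, and the higher ones from 46 (without Crx-/- replicate 2) to 114, with 63 without CrxRip/Rip replicate 1 and 66 without Crx-/- replicate 1. The cause was not tested, beyond that fewer samples enter these fits. The fit with the replicate number as a block called 807 genes at P21 and 245 at P2. Same-numbered samples of CrxRip/Rip and Crx-/- had deviations correlated at -0.08 at P21 and 0.01 at P2, so the numbers were not taken as pairs. Of the 158 genes the rule named, 103 were called, 84 of these under every alternative run. 19 lost the call in at least 1, 18 of them with a sample of the compared groups left out, 4 with median-of-ratios scaling and 2 with the block, and none changed sign. With a pseudocount of 0.1 FPKM the differences of genes near 0 grew, to -9.15 for Cnga1 and -5.93 for Cnga3. Depth is unknown, and rounding limits genes under 1 FPKM.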

Other observations

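Genes of energy metabolism, ion channels and extracellular matrix give further values for this pair. Of 11 metabolic genes measured, 5 were lower in CrxRip/Rip, 2 higher and 4 not called, or 63.6% called beside 53.4% of the table. With median-of-ratios scaling 3 were lower and 3 higher, and 3 were lower and 1 higher without Crx-/- replicate 1 or CrxRip/Rip replicate 1. The hexokinases Hk1 and Hk2 were at 34.9 and 37.5 FPKM against 80.5 and 85.5, and at 5.2 and 4.7 against 12.8 and 14.5 (-1.18 ± 0.09 and -1.30 ± 0.20). Elovl2, an elongase of long fatty acids, was higher, at 49.2 and 55.2 FPKM against 25.7 and 23.3 (1.06 ± 0.11), as was the creatine kinase Ckb, named after its values were seen (0.25). Of 8 channel genes, 4 were lower and 2 higher, or 75.0% called. Cacna1h, a T-type calcium channel, was at 7.0 and 7.9 FPKM in CrxRip/Rip, 66.0 and 80.7 in Crx-/- and 12 and 13.5 in wild type (-3.13 ± 0.14, adjusted p = 9.78e-07).

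Of 5 matrix genes, 3 were lower and 1 higher, or 80.0% called, beside 53.4% of the table. The basement membrane collagens Col4a1 and Col4a2 were lower, by -0.90 ± 0.16 and -1.62 ± 0.13, and Tnc, a tenascin, was at 16.5 and 12.6 FPKM against 5.7 and 6.3 (1.14 ± 0.17). The dopamine receptor Drd4 was at 1.0 and 0.9 FPKM against 10.7 and 13.5, with wild type at 30.7 and 26.9 (-2.74 ± 0.17). Among immediate early genes Fos was lower (-1.35 ± 0.10) and Egr3 higher (1.01 ± 0.20). Egr3 was near the floor, at 1.8 and 0.9 FPKM against 0.1 and 0.2, and differed by 2.49 with a pseudocount of 0.1. Egr1, at 44.2 and 57.5 FPKM against 54.3 and 59.0, was not called and stood far above wild type, at 3.8 in both samples.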
